A study of Arabidopsis thaliana with 6 samples.

Results

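The xyloglucan endotransglucosylase/hydrolase (XTH) and expansin genes of Arabidopsis thaliana were followed in leaves of plants given little CO2. They were chosen by locus from a list of both families, and all 46 loci on it had a probe set among the 21430 on the array, 24 of them XTH genes from XTH4 to XTH33 and 22 of them expansin genes. Every gene on the list was taken, whatever its values, but the list leaves out 23 further genes of both families, described below. Earlier results of these data were known when both families were picked. Plants had grown in soil in short days at 400 ppm CO2 and were 6 weeks old; 1 group then spent 24 h at 100 ppm CO2 (low CO2) and the other stayed at 400 ppm (ambient CO2). Each group had 3 Affymetrix arrays of leaf RNA, each from a pool of 4 to 5 plants, so a replicate is a pool; nothing in the labels says whether the pools were grown or harvested separately, and the sources used here name no accession or genotype. The series names photorespiratory stress as its subject, the state in which Rubisco takes up more oxygen for want of CO2.

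Plant cells grow by letting a stressed wall yield. In the primary wall of Arabidopsis, cellulose microfibrils are joined and spaced by xyloglucan, a branched glucan. XTH enzymes cut a xyloglucan chain and join the new end to another chain (endotransglucosylase activity) or to water (hydrolase activity). Expansins loosen the contact between cellulose and matrix glucans without cutting either, and act best in the acid wall that plasma membrane proton pumps produce. In leaves both families are known for their part in blade and petiole growth, in vein formation, in stomatal movement and in the response to touch and shade.

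Values are log2 expression as the authors normalized it. A gene counted as measured if 3 or more of the 6 arrays read log2 4 or higher, since the lower quartile of the arrays lay between 3.96 and 4.05. Of the 46 genes 41 passed, and 0 of these 41 had every array of a group below log2 4. XTH19 and EXPA14 nevertheless passed through their ambient arrays, since of their low CO2 arrays replicate 2 alone reached log2 4. The 5 that stayed below were XTH10, XTH18, XTH20, XTH21 and EXLA3, with differences between the groups from -0.40 to -0.01. Levels of different genes come from different probes and are not set against each other here. Of the markers of the labelled tissue, the mesophyll genes RCA, CA1 and PSBO1 had means from 13.42 to 14.18 in both groups. Of 5 root genes IRT1, PRP3 and MYB36 stayed below the filter, while NRT2.1 (means 4.83 under low CO2, 4.87 under ambient CO2) and COBL9 (3.98, 4.23) passed it.

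The low CO2 arrays were not alike. Across all 16210 tested probe sets, low CO2 replicate 1 correlated at r = 0.962 and 0.947 with the other low CO2 arrays and at 0.980 to 0.986 with the ambient arrays, while low CO2 replicates 2 and 3 correlated at 0.992. It remained in its group unless its absence is stated. Results without it are given beside those with it, and since an array that differs from its group was removed, the spread that limma sees is then too narrow and its p values are too small.

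Most XTH and expansin genes had a lower mean in low CO2 than in ambient air. The median log2 difference was -0.30 over the 24 XTH genes, 18 of them lower, and -0.29 over the 22 expansin genes, 18 of them lower, where the median of all tested probe sets was -0.03. Over the genes that passed the filter alone, as those probe sets did, the medians were -0.52 for 20 XTH genes and -0.35 for 21 expansin genes. In pooled leaves, fewer cells of a type and less RNA per cell cannot be told apart. Among the genes that passed the filter, 31 of 41 had a lower mean, as had 53.8% of all tested probe sets, and 10 a higher one (46.2%). With limma and Benjamini-Hochberg adjustment over all tested probe sets, 0 of the 41 genes passed an adjusted p of 0.05, as did 0% of all probe sets in either direction. At an adjusted p under 0.10, limma gave XTH4, XTH17 and EXPA16 lower, 3 of 41 (0.234% of all probe sets), and 0 of 41 higher (0.352%). At an unadjusted p under 0.05, limma gave 16 of 41 lower, against 12.6% of all probe sets, and 2 of 41 higher, against 13.5%. XTH19, which passed the filter through its ambient arrays, was among the 16. The 3 low CO2 values lay below all 3 ambient values for 14 of 41 genes (14.3% of all probe sets) and above them for 2 of 41 (14.6%). A mean at least 2-fold lower in low CO2 was found for 7 of 41, against 1.14% of all probe sets, and at least 2-fold higher for 0 of 41, against 3.49%.

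**Figure D1:**
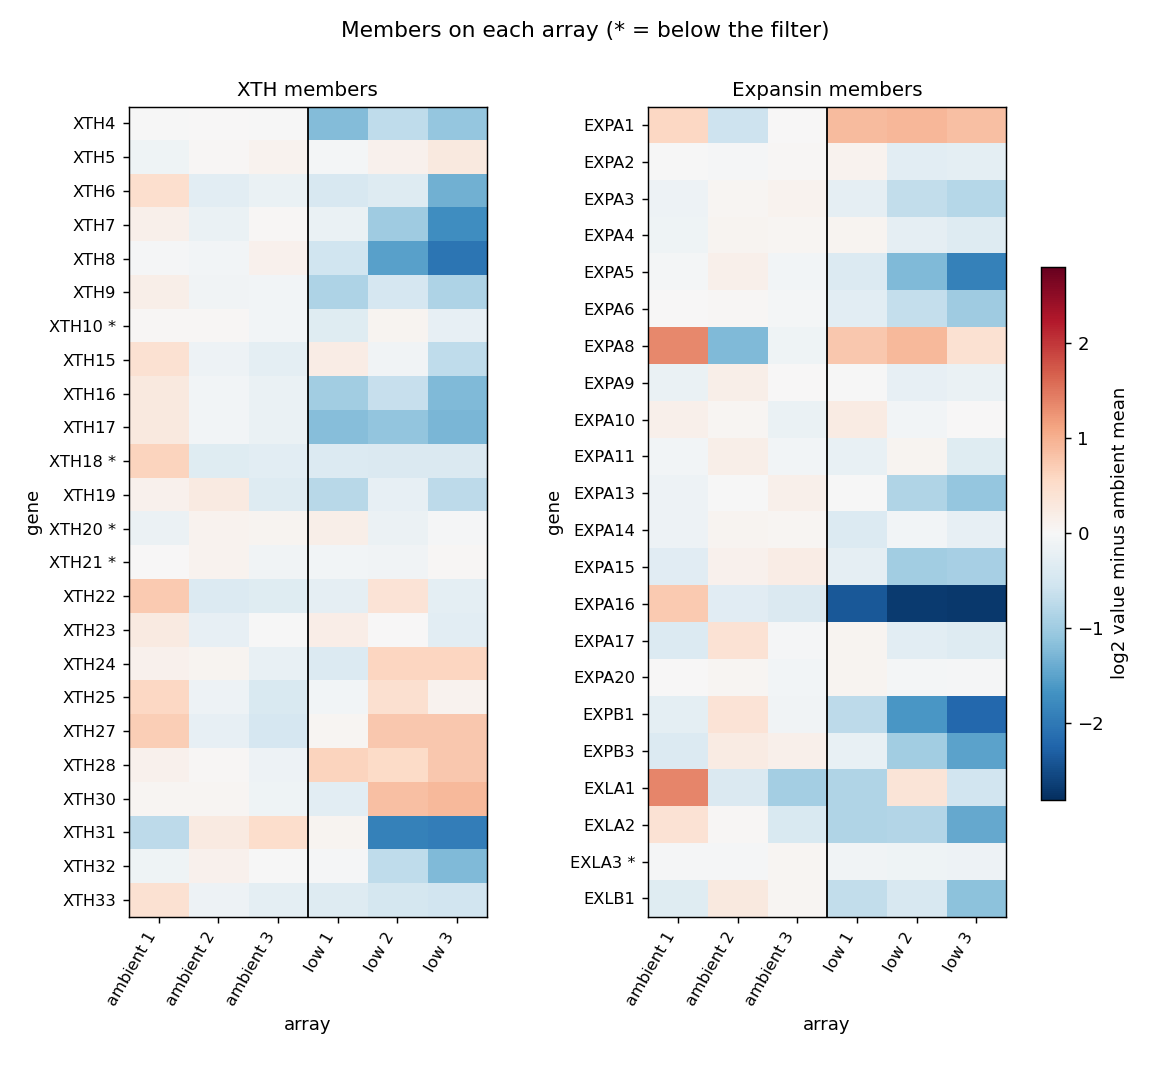
The 46 genes (rows) on the 6 arrays (columns), coloured by the log2 value minus the mean of the 3 ambient arrays (blue lower, red higher). A star marks the 5 genes below the filter; the darkest blue is EXPA16 on the 3 low CO2 arrays, and XTH31, XTH32 and XTH7 are blue on low CO2 replicates 2 and 3 but pale on replicate 1.

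The medians by array were -0.28, -0.20 and -0.48 for the XTH genes and -0.21, -0.30 and -0.46 for the expansin genes on low CO2 replicates 1, 2 and 3, each against the ambient mean. On replicate 1, which otherwise resembled the ambient arrays, both families thus had a median below that of all tested probe sets on it, 0.02. This did not hold clearly in every branch of the families. The medians on replicate 1 were -0.46, -0.26 and 0.014 for XTH groups I, II and III. They were -0.007 for the 16 alpha-expansins, -0.48 for the 2 beta-expansins and -0.76 for the 4 expansin-like genes. Without that array limma called 18 of the 41 genes lower (18.5% of all probe sets) and 3 higher (16.8%). The 18 were XTH4, XTH7, XTH8, XTH9, XTH16, XTH17, XTH31 and XTH32 and the expansin genes EXPA3, EXPA5, EXPA6, EXPA13, EXPA15, EXPA16, EXPB1, EXPB3, EXLA2 and EXLB1, and the 3 were XTH24, XTH28 and XTH30. Without any other single array the count was 0 of 41, as it was 0 over all 16210 tested probe sets. The XTH median was -0.12 without ambient replicate 1.

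Most of the early numbered XTH genes, group I of the family's phylogeny, were lower. Of XTH4 to XTH10, 6 of 7 had a lower mean in low CO2, with a group median of -0.74. XTH4 (AT2G06850_at), first described as an endoxyloglucan transferase, stood at 11.98, 12.01 and 11.99 on ambient replicates 1, 2 and 3 and at 10.78, 11.29 and 10.91 on low CO2 replicates 1, 2 and 3. The ambient arrays thus lay within a few hundredths of each other, and all 3 low CO2 arrays, replicate 1 lowest, lay well below them. The mean was 1.99-fold lower (SE 0.15 on the log2 scale), with a limma adjusted p of 0.0973, or 0.00424 without low CO2 replicate 1. XTH9 (AT4G03210_at), which is expressed in growing shoot tissue, had the same form, with 11.05, 10.79 and 10.82 in ambient air and 10.02, 10.41 and 10.02 in low CO2. Its mean was 10.89 ± 0.14 (SD, n = 3) in ambient air and 10.15 ± 0.22 (n = 3) in low CO2, a difference of -0.74 (SE 0.15, limma adjusted p = 0.118). In both genes low CO2 replicate 2, not replicate 1, lay nearest to the ambient arrays.

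XTH8 and XTH7 differed from ambient air mainly on low CO2 replicates 2 and 3. XTH8 (AT1G11545_at) read 8.47, 8.44 and 8.62 in ambient air against 7.94, 6.99 and 6.47 in low CO2, with no overlap and a difference of -1.38 (SE 0.35, limma adjusted p = 0.124). XTH7 (AT4G37800_at) read 11.43, 11.11 and 11.32 against 11.11, 10.29 and 9.55. Its replicate 1 lay within the ambient range, and the 1.96-fold lower mean became 2.58-fold without replicate 1 and -0.58 on the log2 scale without replicate 3. XTH6 read 11.86, 11.08 and 11.20 against 10.92, 11.03 and 10.04, where a gap of 0.05 separated the groups and the difference of -0.72 shrank to -0.41 without low CO2 replicate 3. XTH5 went the other way by 0.11 (SE 0.13), within the spread of its arrays.

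**Figure D2:**
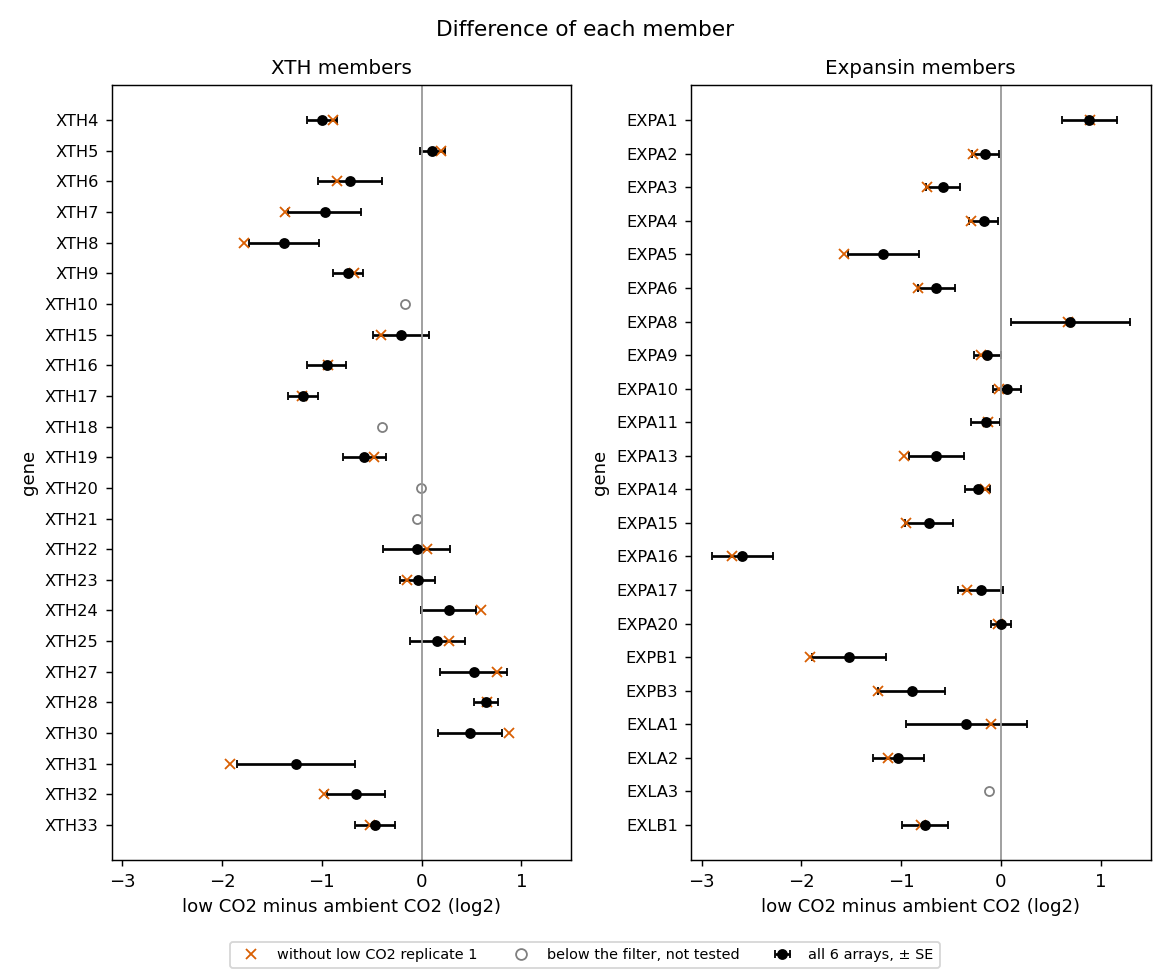
Low CO2 mean minus ambient mean (log2, horizontal axis) of each gene, with the limma SE as bars, and the same without low CO2 replicate 1 as crosses. Open circles are the 5 genes below the filter; most points lie left of 0, EXPA16 farthest at -2.59, while XTH28 and EXPA1 lie to the right.

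Group II holds the XTH genes best known for answering touch, shade and hormones, and it divided into lower genes and genes without a direction. Its median was -0.05 over 11 genes. XTH17 (AT1G65310_at), one of the genes through which shade acts on petiole growth, read 6.01, 5.64 and 5.53 in ambient air and 4.54, 4.61 and 4.45 in low CO2. The 3 low CO2 pools were nearly alike and weak in signal, and all lay 0.92 or more below the lowest ambient array. The 2.28-fold lower mean had an SE of 0.15 on the log2 scale and the smallest limma adjusted p of the XTH genes, 0.0896. XTH16 (AT3G23730_at) read 8.51, 8.16 and 8.06 against 7.26, 7.60 and 7.01, a difference of -0.95 (SE 0.19, limma adjusted p = 0.118). XTH19, which with XTH17 belongs to a set of closely related genes known mainly from roots, read 4.58, 4.70 and 4.10 against 3.69, 4.22 and 3.73, so its groups overlapped through low CO2 replicate 2 and ambient replicate 3. XTH18 passed log2 4 on ambient replicate 1 alone.

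The touch gene of the family showed no direction. XTH22 (AT5G57560_at), named TCH4 for its induction by touch, read 9.92, 8.83 and 8.86 in ambient air and 8.94, 9.58 and 8.93 in low CO2. Its highest value was an ambient one, and its difference of -0.05 (SE 0.34, limma adjusted p = 0.936) changed sign with the array left out. XTH15 (AT4G14130_at), which shade induces, read 5.35, 4.78 and 4.65 against 5.12, 4.83 and 4.22, so its groups overlapped in part. The difference of XTH15 was -0.20 (SE 0.28) and that of XTH23, a close relative of XTH22, was -0.04 (SE 0.18). XTH25, the neighbour of XTH22 on chromosome 5, differed by 0.16 (SE 0.27).

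XTH24 (AT4G30270_at) was the only group II gene called higher without low CO2 replicate 1. This gene, first found as MERI5 in meristems and listed in the gene table also as SEN4, read 10.92, 10.86 and 10.59 in ambient air and 10.42, 11.38 and 11.39 in low CO2. Replicate 1 was the lowest of all 6 arrays and replicates 2 and 3 the highest. The mean difference of XTH24 was 0.27 (SE 0.28, limma adjusted p = 0.543) with all arrays and 0.60 (limma adjusted p = 0.0141) without replicate 1. It was 0.11 without low CO2 replicate 2 or 3 and 0.17 without ambient replicate 3. XTH18, XTH19 and XTH24 lie side by side on chromosome 4 in the gene table, and their differences were -0.40, -0.58 and 0.27.

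**Figure D3:**
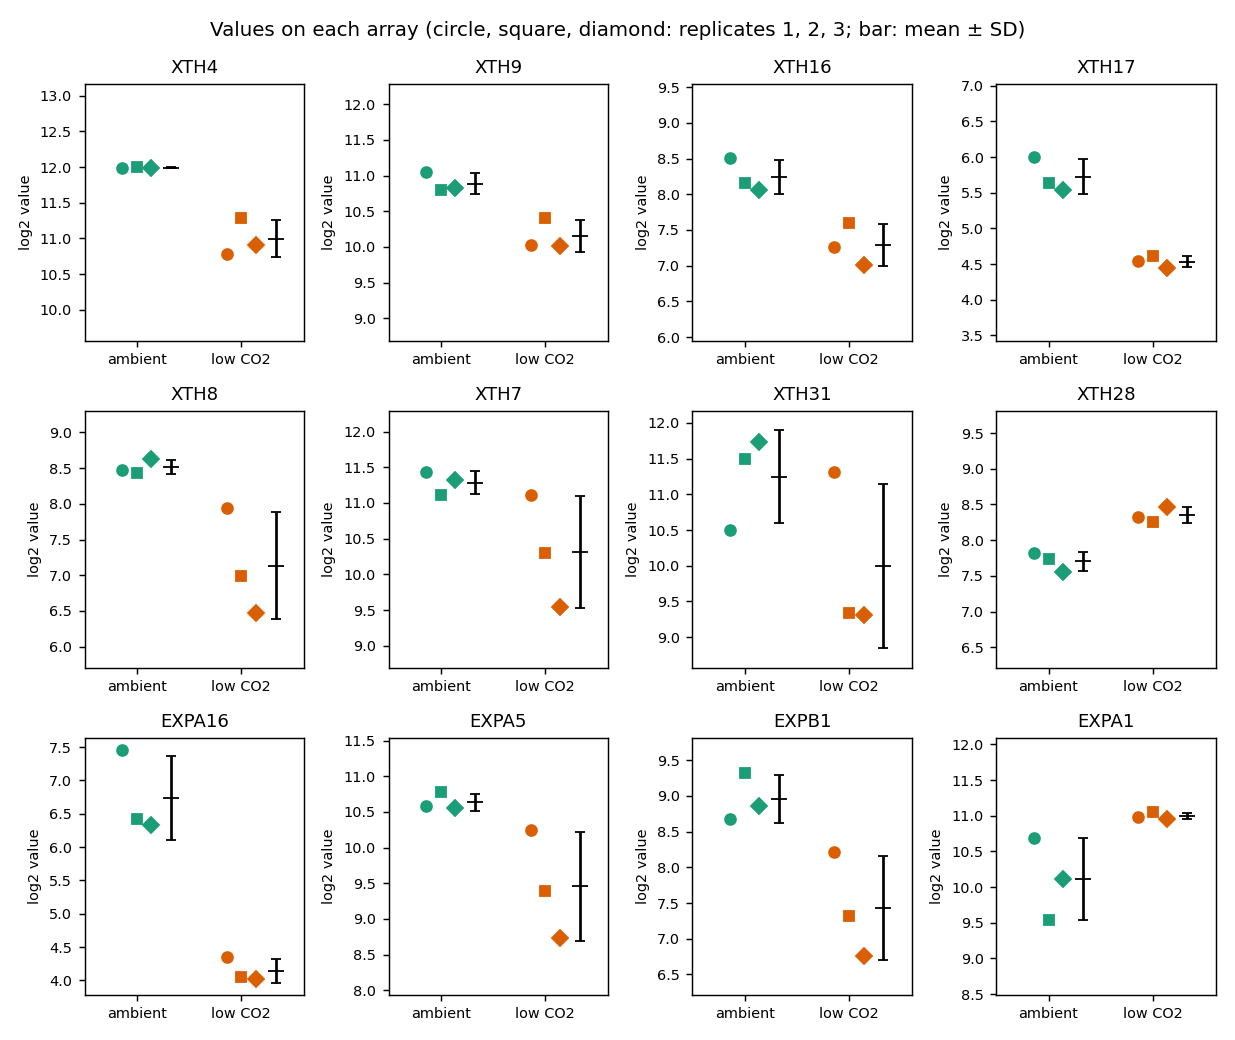
Log2 values of 12 genes on each array (vertical axis), ambient CO2 in green and low CO2 in orange, with circle, square and diamond for replicates 1, 2 and 3 and the black mark for the mean ± SD (n = 3). In XTH4, XTH9, XTH16, XTH17 and EXPA16 the 3 low CO2 points lie together below the ambient points, in XTH8, XTH7, XTH31, EXPA5 and EXPB1 the circle of low CO2 lies nearest to them, and XTH28 and EXPA1 lie above.

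Group III contained genes on both sides of 0. XTH28 (AT1G14720_at), known for its part in stamen filament growth, read 7.82, 7.74 and 7.56 in ambient air and 8.33, 8.25 and 8.47 in low CO2. It was the single XTH gene whose low CO2 values all lay above the ambient ones, at 1.56-fold (log2 difference 0.64, SE 0.12, limma adjusted p = 0.115), and replicate 1 differed as much as replicates 2 and 3. XTH30 read 5.40, 5.40 and 5.21 against 5.04, 6.19 and 6.24. For XTH30 replicate 1 was the lowest array and the other low CO2 arrays the highest, so that the difference of 0.48 became 0.88 without it, but 0.30 without low CO2 replicate 2 and 0.27 without low CO2 replicate 3. XTH27, which acts in the formation of leaf veins, differed by 0.52 (SE 0.34) with overlapping groups.

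XTH31 and XTH32, the branch of group III in which hydrolysis of xyloglucan is thought to prevail, were lower on low CO2 replicates 2 and 3 alone. XTH31 (AT3G44990_at) read 10.50, 11.50 and 11.74 in ambient air and 11.32, 9.34 and 9.31 in low CO2. The first low CO2 pool lay inside the ambient range, and both others lay more than 1 log2 unit below its lowest value. Over all arrays the difference of XTH31 was -1.26 (SE 0.59, limma adjusted p = 0.225), and without replicate 1 it was -1.92, a 3.78-fold lower level. XTH32 (AT2G36870_at) read 11.21, 11.45 and 11.32 against 11.30, 10.61 and 10.09, with a difference of -0.66 (SE 0.29), -0.97 without low CO2 replicate 1 and -0.37 without replicate 3. XTH33, whose product is anchored in the plasma membrane, differed by -0.47 (SE 0.20) near the array's lower end, and by -0.25 without ambient replicate 1.

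Among the alpha-expansins, the acid growth expansins of leaves and stems, EXPA16 (AT3G55500_at) stood out. It read 7.46, 6.42 and 6.33 in ambient air and 4.35, 4.05 and 4.02 in low CO2, so the groups lay 1.97 apart at their nearest values. Its mean was 6.74 ± 0.63 (SD, n = 3) against 4.14 ± 0.18 (n = 3), a 6.03-fold lower level with a limma adjusted p of 0.0719. Of all 16210 tested probe sets EXPA16 had the most negative difference, rank 1, and it had rank 3 without low CO2 replicate 1 and rank 6 without ambient replicate 1. The low CO2 values lay at the lower quartile of the array, where normalization draws values together. A single omission moved the difference of EXPA16 to between -2.8 and -2.23.

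EXPA5, EXPA6 and EXPA3 were lower in low CO2 without overlap of the groups. EXPA5 (AT3G29030_at), known from brassinosteroid-dependent growth, read 10.58, 10.77 and 10.55 in ambient air and 10.25, 9.39 and 8.73 in low CO2, a difference of -1.18 (SE 0.35, limma adjusted p = 0.136). EXPA6 read 10.03, 10.06 and 9.97 against 9.73, 9.35 and 9.03, and EXPA3 read 7.98, 8.18 and 8.22 against 7.87, 7.44 and 7.33. In all 3 genes low CO2 replicate 1 lay nearest to the ambient arrays. The differences were -0.65 (SE 0.18) for EXPA6 and -0.58 (SE 0.17) for EXPA3, each with a limma adjusted p of 0.134. EXPA13 and EXPA15 overlapped through replicate 1, at differences of -0.65 (SE 0.28) and -0.72 (SE 0.24), and became -0.97 and -0.95 without it, while EXPA13 was -0.43 without low CO2 replicate 3.

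EXPA1 (AT1G69530_at), an expansin of guard cells that speeds stomatal movement, was the single expansin gene with all low CO2 values above the ambient ones. It read 10.69, 9.53 and 10.11 in ambient air and 10.99, 11.05 and 10.95 in low CO2. The low CO2 pools agree within 0.1, while the ambient pools spread over more than 1 log2 unit. The 1.85-fold higher mean had an SE of 0.27 on the log2 scale and a limma adjusted p of 0.136, and 0.0582 without low CO2 replicate 1. Its log2 difference of 0.89 was 1.17 without ambient replicate 1 and 0.60 without ambient replicate 2. Among 4 guard cell markers measured, MYB60 differed by -0.35, FAMA by -0.38, KAT1 by -1.04 and GC1 by 0.49, and their summed level ran from 9.34 to 9.73 in low CO2 and from 9.27 to 9.53 in ambient air. Their part in the EXPA1 difference was not tested.

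Of the other alpha-expansins, 8 had differences between -0.23 and 0.06. EXPA10, which promotes leaf and petiole growth, read 8.78, 8.69 and 8.44 against 8.87, 8.57 and 8.65, a difference of 0.06 (SE 0.14). EXPA4 and EXPA11 differed by -0.17 (SE 0.15) and -0.15 (SE 0.15), and EXPA2, EXPA9, EXPA14, EXPA17 and EXPA20, all near the array's lower end, by -0.23 to 0.00. None of these 8 genes had groups without overlap. EXPA8 read 10.57, 7.97 and 9.09 in ambient air, the widest ambient spread of the 46 genes, against 9.96, 10.12 and 9.64. The low CO2 values of EXPA8 lay within the ambient range, and its difference of 0.70 (SE 0.59, limma adjusted p = 0.469) was 1.37 without ambient replicate 1 and 0.078 without ambient replicate 2.

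Both beta-expansins, a branch best known from grass pollen in maize, had lower means. EXPB1 (AT2G20750_at) read 8.67, 9.33 and 8.86 in ambient air and 8.21, 7.32 and 6.76 in low CO2, a 2.88-fold lower level (log2 difference -1.52, SE 0.37, limma adjusted p = 0.12) without overlap. EXPB3 (AT4G28250_at) read 8.76, 9.38 and 9.30 against 8.93, 8.18 and 7.64, where replicate 1 lay within the ambient range and the others below it. The difference of EXPB3 was -0.90 (SE 0.34), -1.24 without low CO2 replicate 1 and -0.59 without low CO2 replicate 3.

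Of the expansin-like genes, whose wall activity is not known, EXLA2 and EXLB1 were lower on all 3 low CO2 arrays. EXLA2 (AT4G38400_at) read 7.26, 6.89 and 6.43 in ambient air and 6.03, 6.03 and 5.43 in low CO2, a difference of -1.03 (SE 0.26, limma adjusted p = 0.122). EXLB1 (AT4G17030_at) read 7.04, 7.67 and 7.45 against 6.71, 6.93 and 6.24, a difference of -0.76 (SE 0.23, limma adjusted p = 0.136). In both, low CO2 replicate 1 lay as low as replicate 2 or lower. EXLA1 read 8.97, 7.19 and 6.66 against 6.76, 7.96 and 7.06, with an order of arrays that followed no group, and a difference of -0.35 (SE 0.61), and EXLA3, separated from EXLA1 by 1 gene on chromosome 3, stayed below the filter.

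Ambient replicate 1 stood above the other ambient arrays for many of these genes. It lay more than log2 0.5 above their mean for 11 of 41 genes, against 5.82% of all tested probe sets, and more than 0.5 below it for 4 of 41, against 4.29%. This distance was 2.04 for EXLA1, 2.03 for EXPA8, 1.09 for EXPA16, 1.08 for XTH22 and 1.03 for XTH27, and -1.11 for XTH31. In EXLA1 this 1 pool made up most of the ambient spread. In EXPA8 ambient replicate 2, at 7.97, lay about as far below the ambient mean of 9.21 as replicate 1, at 10.57, lay above it. Without ambient replicate 1 the difference of EXLA1 turned from -0.35 to 0.33 and that of XTH22 from -0.05 to 0.31, and EXLA1 was -0.82 without ambient replicate 3. XTH27 went from 0.52 to 0.87 without ambient replicate 1 and to 0.29 without ambient replicate 3. With ambient replicate 1 left out, 0 of 41 genes passed limma's adjusted p of 0.05, as with all arrays, and so did 0% of all probe sets.

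**Figure D4:**
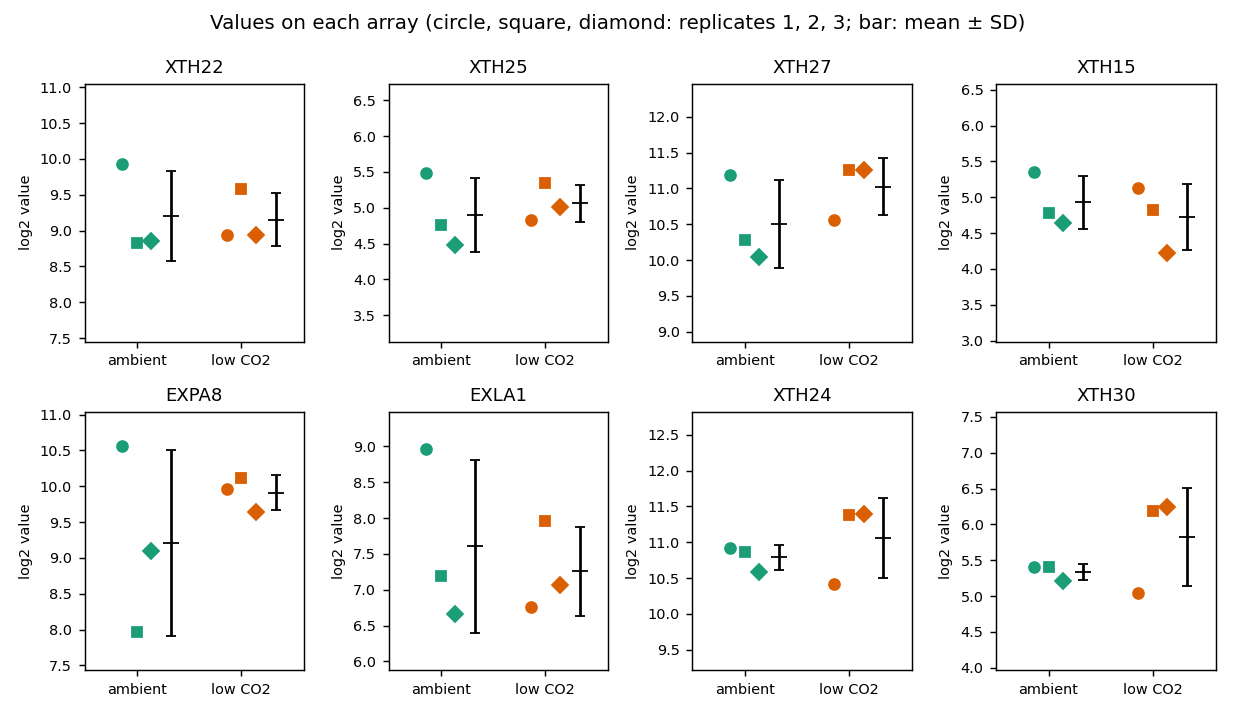
Log2 values of 8 genes whose groups overlapped, drawn as in the plot of 12 genes. The ambient circle (replicate 1) is the highest ambient point in XTH22, XTH25, XTH27, XTH15, EXPA8 and EXLA1, and in XTH24 and XTH30 the low CO2 circle lies below all other points.

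The genes that make xyloglucan were lower throughout. All 7 measured, the xylosyltransferase genes XXT1, XXT2 and XXT5, the glucan synthase gene CSLC4, the galactosyltransferase genes MUR3 and XLT2 and the fucosyltransferase gene FUT1, had 3 low CO2 values below all ambient values (14.3% of all probe sets). The median difference over the 7 was -0.77, all 7 had an unadjusted limma p under 0.05 (12.6% of all probe sets, lower), and 0 passed the adjusted p with all arrays. Leaving out 1 array gave 5 to 7 at that unadjusted p. Over all 16210 probe sets, calls at that p in both directions numbered 4236 with all arrays. With 1 array left out they ran from 2034 without ambient replicate 3 to 7559 without low CO2 replicate 1. Without low CO2 replicate 1 all 7 genes fell by the adjusted p, as did 18.5% of all probe sets. XLT2 read 9.85, 9.95 and 9.77 in ambient air and 9.57, 8.69 and 8.13 in low CO2, a difference of -1.06 (SE 0.34). FUT1 read 6.68, 6.76 and 6.66 against 6.33, 6.16 and 6.03, a difference of -0.53 (SE 0.12). In both genes replicate 1 lay nearest to ambient air.

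The genes that trim xyloglucan in the wall did not move together. The alpha-xylosidase gene XYL1 differed by -0.28 (SE 0.22), the alpha-fucosidase gene AXY8 by -0.13 (SE 0.14) and the beta-galactosidase gene BGAL10 by 0.66 (SE 0.30), all with overlap. BGAL10 rose by 1.00 without low CO2 replicate 1 (limma adjusted p = 0.00608). For cellulose synthesis in the primary wall, all 8 genes had lower means (53.8% of all probe sets), 6 without overlap (14.3%), with a median of -0.50. At an unadjusted limma p under 0.05 were 6 of the 8 (12.6% of all probe sets, lower). This count was 2 without low CO2 replicate 2 or ambient replicate 1, and 3 without low CO2 replicate 3 or ambient replicate 3. Over all 16210 probe sets, calls at that p in both directions numbered 4236 with all arrays. They fell to 2145 and 2251 without low CO2 replicates 2 and 3, and to 3972 and 2034 without ambient replicates 1 and 3. Without low CO2 replicate 1, 7 of the 8 fell by the adjusted p (18.5% of all probe sets). CESA5 differed by -1.15 (SE 0.34) and CESA6, a related catalytic subunit, by -1.0 (SE 0.32), whereas the endoglucanase gene KOR1 differed by -0.15 (SE 0.14). Of the proton pump genes that acidify the wall, AHA2 differed by -0.97 (SE 0.30) and AHA1 by -0.08 (SE 0.12).

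**Figure D5:**
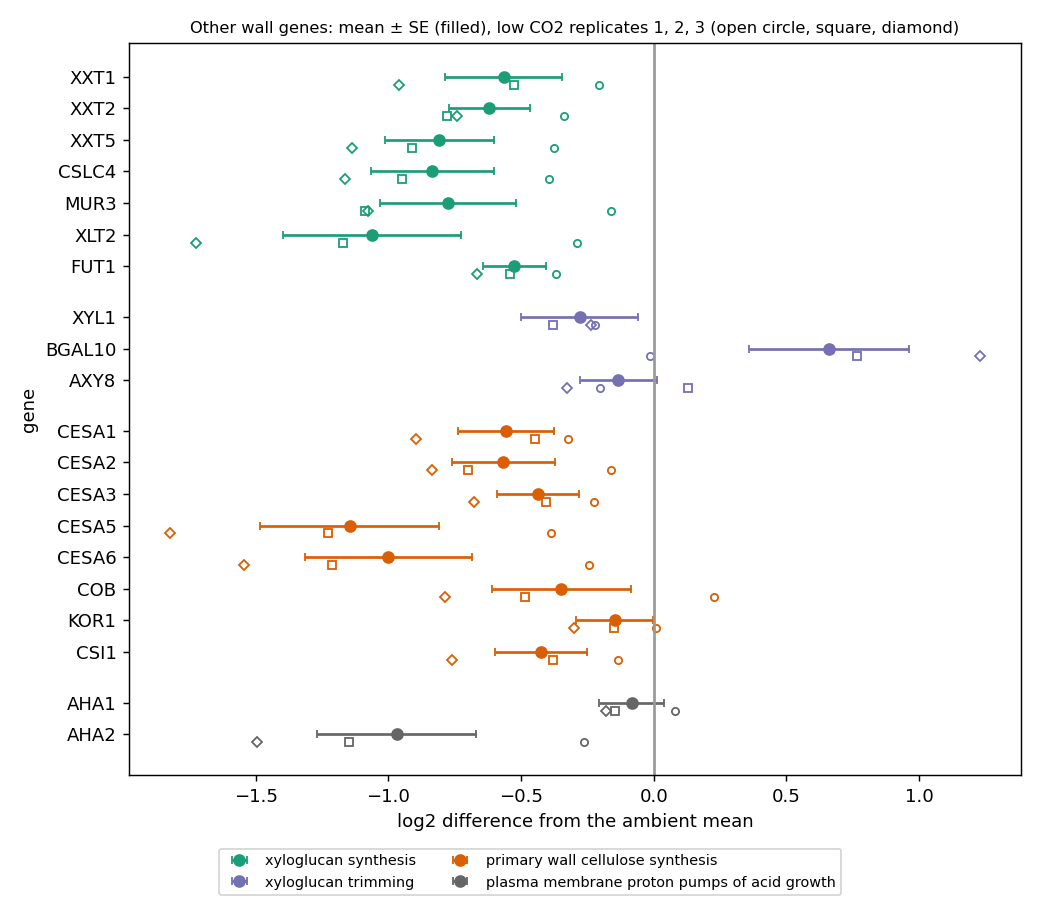
Low CO2 minus ambient mean (log2, horizontal axis; filled points with limma SE) of 20 other wall genes, and each low CO2 array's distance from the ambient mean below it (open circle, square and diamond for replicates 1, 2 and 3). All 7 xyloglucan synthesis genes lie left of 0 on every low CO2 array, and for them the circle lies nearest to 0.

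Most other members of both families with a probe set stayed below the filter in these leaves. Of 23 further XTH and expansin genes looked up, 16 had a probe set and 4 passed the filter, EXPA7, EXPA12, EXPA18 and EXPB2. The 16 had a median difference of -0.04, with 5 higher and 11 lower in low CO2. EXPA7, an expansin of root hairs, differed by -0.45 (SE 0.14, limma adjusted p = 0.137).

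Markers of dividing cells were lower beside the wall genes. PCNA1, CYCB1;1 and KNOLLE, 3 of 5 listed with a probe set, differed by -0.91, -0.39 and -0.68, each without overlap (14.3% of all probe sets). CYCB1;1 lay near the array's lower end, with means of 4.49 in low CO2 and 4.88 in ambient air. The summed level of the 3 markers ran from 8.19 to 8.45 in low CO2 and from 8.91 to 9.18 in ambient air. Their part in the lower XTH and expansin levels was not tested. The 5 epidermal markers had a median of -0.21 and a summed level from 12.24 to 12.46 against 12.40 to 12.64, and the 5 vascular markers a median of 0.18 and a summed level from 10.86 to 10.94 against 10.55 to 10.82. Their part was not tested either. The 5 root markers summed to 6.31 to 6.47 against 6.23 to 6.57, near the array's lower end.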

How the data were processed

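Leaf RNA (5 µg per array, per the labels) was labelled with biotin and hybridised to Affymetrix arrays. The authors deposited log2 expression values from GCRMA, a tool named in the submitters' processing notes without a version; it removes probe-specific background and draws weak probe sets to a common floor. The log base was read from the values (array medians 6.07 to 6.11). No genome build is stated, so no coordinates are printed. All 46 names matched a RefSeq gene table (TAIR10.1).

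Probe sets reading log2 4 or higher on 3 or more of the 6 arrays were tested (16210; 5220 set aside) in limma 3.58.1 under R 4.3.3, with lmFit, eBayes, 2-sided p values and Benjamini-Hochberg adjustment at 0.05. The code was tested on simulated data. Permuting 3 against 3 arrays exactly gives no p below 0.1, so it was not done. The number of arrays limits the precision, and p values measure the spread between pools, which may be technical. Summed levels are log2 values of linear sums. Members and lists were chosen with earlier results of these data known. By rule, values on all arrays are given for the 8 genes per family with the smallest p and for XTH22, XTH15 and XTH24; the other genes shown array by array were chosen after seeing their values. The alternatives tried are named with their effect in the closing section. Sequences were not used here. Figures were drawn with matplotlib 3.10.9.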

Additional observations from a re-analysis of the deposited data

How the results depend on the processing

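None of the 41 genes passed limma's adjusted p of 0.05. This count of 0 held without the filter, with the floor raised to log2 5, under quantile normalization or median centring, with a trended and robust eBayes and with the replicate number as a block. Over all tested probe sets the count was likewise 0 under each of these settings. At an unadjusted p under 0.05 the count of genes was 18 (12.6% of all probe sets lower, 13.5% higher). At an adjusted p under 0.10 it was 3 (0.234% lower, 0.352% higher). Both of these thresholds were added after seeing the data. With array weights, an estimate that did not converge, it was 31, where 4798 higher and 5573 lower calls were made among the 16210 probe sets. With each array left out the count of genes was 0 to 21. It was 21 without low CO2 replicate 1 (18.5% of all probe sets lower, 16.8% higher) and 0 without any other, as over all probe sets. The XTH median of -0.30 ran from -0.44 to -0.12 with each array left out and the expansin median of -0.29 from -0.42 to -0.24. Over tested genes alone, the XTH median was -0.52 in the reported fit, -0.72 with the floor of log2 5, which drops weak genes, and -0.18 with array weights (9 higher, 11 lower), and the expansin median was -0.35, -0.65 and -0.36. Genes without overlap numbered 2 to 6 above and 14 to 22 below with each array left out, where fewer arrays make a gap easier. The share over all probe sets was not counted with an array left out, so these counts say nothing particular to the 41 genes. With the replicate block the medians were -0.30 and -0.29, which such a balanced block cannot change. Limma's smallest adjusted p over all probe sets was then 0.238, against 0.0719 without the block, so no gene passed 0.10. Deviations of same-numbered arrays correlated at r = -0.19, 0.02 and -0.20, and those of differently numbered arrays at -0.35 to 0.30. With 3 arrays per group the deviations are bound to each other, so these values cannot decide whether the numbers pair the samples. XTH22 turned to 0.58 with array weights and ranged from -0.26 to 0.31 with each array left out, being 0.06 without low CO2 replicate 1, 0.06 without low CO2 replicate 3 and 0.31 without ambient replicate 1. XTH15 turned to 0.042 with array weights and ranged from -0.40 to 0.050, being 0.050 without low CO2 replicate 3 and 0.0099 without ambient replicate 1. The cause was not tested. Signals near log2 4 limit what can be seen of weak genes.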
